A study of Mus musculus with 2 samples.

Results

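The entries named miR-297, miR-466, miR-467 and miR-669 were examined in the miRNA of serum extracellular vesicles (EVs), membrane-bound particles shed by cells and carried in the blood. An entry was taken as a member when 1 of these 4 numbers stood in its name with an optional letter and arm, and joined names (several names listed together as 1 entry) counted when any name in them matched. The entry miR-669a-3-3p, whose name also holds a copy number, was included. This gave 44 of the 1847 mature mouse miRNAs listed, with 3 entries of miR-297, 16 of miR-466, 8 of miR-467 and 17 of miR-669. The set is often called the Sfmbt2 cluster, but by position that name holds for only some of it, so the members are called here by their numbers. Control and iFIRKO mice were compared, with 1 library per group made from pooled serum of several mice. The iFIRKO genotype was Adipoq-CreERT2; Insr flox/flox, in which the adiponectin promoter drives a tamoxifen-inducible Cre recombinase in adipocytes, so that the floxed insulin receptor gene is deleted there after tamoxifen. The control genotype is WT in the labels, whereas the methods of the study describe floxed mice without Cre. Mice of both groups were males of 7 weeks that received 100 mg/kg tamoxifen on 5 days in a row, and they were sampled on day 3 after it. The loss of the insulin receptor gene cannot be read from miRNAs, so the labels could not be tested against it. Which of the 2 deposited tables belongs to which group is in doubt and was not settled by these data. All directions are given as labelled, and an exchange of the tables would invert every ratio.

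The deposited values were whole counts divided by a constant of 3817902 in the control-labelled library and 2233498 in the iFIRKO-labelled library, and these constants were taken as the depths. Levels are given as counts and as counts per 1000000 of that depth (CPM). The lowest value stood for 76 miRNAs of the control-labelled library and 35 of the iFIRKO-labelled library, with no value between it and 10 counts, so it was read as a floor meaning fewer than 10 counts (2.62 CPM and 4.48 CPM). Of the 44 members, 39 were above the floor in both libraries. With 1 library per group no test between genotypes could be made. A ratio is the CPM of the iFIRKO-labelled library divided by that of the control-labelled library, and the 95% intervals given with ratios cover counting error only, and the spread between mice is unknown. Over all 1847 miRNAs the median log2 ratio was 0.88, which is a ratio of 1.84, and it was 0.03 after scaling with TMM factors (a normalization that equalizes the bulk of the miRNAs). TMM scaling divides every ratio by 1.81, so any deposited ratio between 1 and 1.81 turns below 1 under it. A member is therefore also placed against the median of all miRNAs, and no scaling changes its side.

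Sfmbt2 encodes a Polycomb group protein and is an imprinted gene, expressed from the paternal allele in the mouse. Rodents carry in its introns a very large array of miRNA hairpins that arose by repeated duplication, and these miRNAs are best known from the placenta, trophoblast and embryonic stem cells. A hairpin can release a mature strand from each side, called the 5p and the 3p arm, and bases 2 to 8 of a mature miRNA form the seed that pairs with target mRNAs. Many members are built from runs of alternating bases, and near-identical copies share reads, so counts of single members of this set depend on how reads were assigned.

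In the RefSeq annotation of GRCm38.p6, the build named mm10 in the labels, Sfmbt2 lies at chr2:10370440-10595253. The 44 members come from 75 hairpins, of which 66 lie inside Sfmbt2, all on its strand and none over an exon, between chr2:10466663 and chr2:10518279 (51.6 kb). All 71 miRNA genes that RefSeq names inside Sfmbt2 carry the 4 numbers, whereas GENCODE lists 119 there, of which 48 have only predicted gene names (Gm and a number) and were not matched to listed miRNAs here. The other 9 hairpins lie on chromosomes 3, 7, 9, 10, 11 and 13. By position, 33 members have all their hairpins inside Sfmbt2, 3 have hairpins both inside and outside, and 8 have none inside. These 8 are miR-466i-3p, miR-466i-5p, miR-466j, miR-466k, miR-466q, miR-467f, miR-467h and miR-669n.

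RefSeq gave a mature sequence for 7 members, all of them outside Sfmbt2. They are shown because the base runs that give the set its character can be read in them, and because 3 of them (miR-466k, miR-467f and miR-669n) are among the members with the largest differences between the libraries. Sequences run 5′ to 3′, and the capitals mark the seed.
miR-466i-3p: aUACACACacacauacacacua
miR-466q: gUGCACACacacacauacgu
miR-467f: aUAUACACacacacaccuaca
miR-466j: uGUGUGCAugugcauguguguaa
miR-466k: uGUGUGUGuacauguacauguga
miR-467h: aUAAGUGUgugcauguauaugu
miR-669n: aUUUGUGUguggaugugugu

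The 7 seeds were all different. The first 3 sequences are rich in A and C, which made up 86.4% of the bases in miR-466i-3p, 70.0% in miR-466q and 85.7% in miR-467f. The other 4 are rich in G and U, from 68.2% of the bases in miR-467h to 90.0% in miR-669n. A run of 8 bases of GUGUGUGU, UGUGUGUG, ACACACAC or CACACACA, which overlap one another and include their own reverse complements, was found in 5 of the 7. The same search found it in 4 of the 1585 other listed miRNAs with a sequence, and in 9 of all 1592 (0.565%). Thus most members with a sequence hold the run, and few other miRNAs do. In the hairpins of miR-466k and miR-669n the runs extend past the mature strand, which is in capitals below. The first is chr3:85467377-85467498 and the second chr3:115979902-115979955, both on the plus strand of GRCm38.p6.
Mir466k: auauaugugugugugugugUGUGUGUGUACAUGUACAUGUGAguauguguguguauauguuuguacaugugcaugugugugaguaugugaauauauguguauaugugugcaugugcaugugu
Mir669n: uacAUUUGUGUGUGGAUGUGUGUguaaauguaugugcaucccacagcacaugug

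The members were a small part of the EV miRNA in both libraries. They summed to 2823 counts, 0.0739% of the depth, in the control-labelled library and to 2510 counts, 0.112% of the depth, in the iFIRKO-labelled library. The summed share was thus 1.52 times as high in the iFIRKO-labelled library (95% interval 1.44 to 1.60), but 0.84 times after scaling with TMM factors, so its direction depends on the scaling. On the deposited scale, 24 of the 44 members (54.5%) were over 1.5-fold higher in the iFIRKO-labelled library, against 66.3% of all miRNAs, and 2 (4.55%) were over 1.5-fold lower, against 3.03% of all. After TMM scaling it was 6 members higher, against 21.0% of all miRNAs, and 10 lower, against 19.5% of all. The median log2 ratio of the members was 0.64 (0.65 with floor entries set to 10 counts), and 30 of the 44 lay under the median of all miRNAs. After TMM scaling the median of the members was −0.21 and that of all miRNAs 0.03. The median of the members therefore stood below that of all miRNAs, as a description of these 2 libraries. TMM scaling divides every ratio by the same factor, so it could not change this order.

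Ratios in these libraries vary with abundance, so the members were set beside other miRNAs of like mean count. Between mean counts of 10 and 20, 9 of 14 members (64.3%) were over 1.5-fold higher, where 73.9% of all miRNAs of that class were. From 20 to 50 counts it was 9 of 13 members (69.2%) against 77.7%, and from 50 to 100 counts 5 of 12 members (41.7%) against 76.5%. Neither of the 2 members from 100 to 1000 counts passed, where 47.0% of all did. In each of these 4 classes the share of members was under that of the class. With 14 members or fewer in a class, a few members decide each share, and the first 2 shares were near those of their classes. The median log2 ratio of the 39 members from 10 to 100 counts was 0.69, and that of the 1311 other miRNAs in the same range was 1.02, or 0.65 and 1.0 among those above the floor in both libraries. The gap was widest from 50 to 100 counts, with medians of 0.52 and 1.0.

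**Figure D1:**
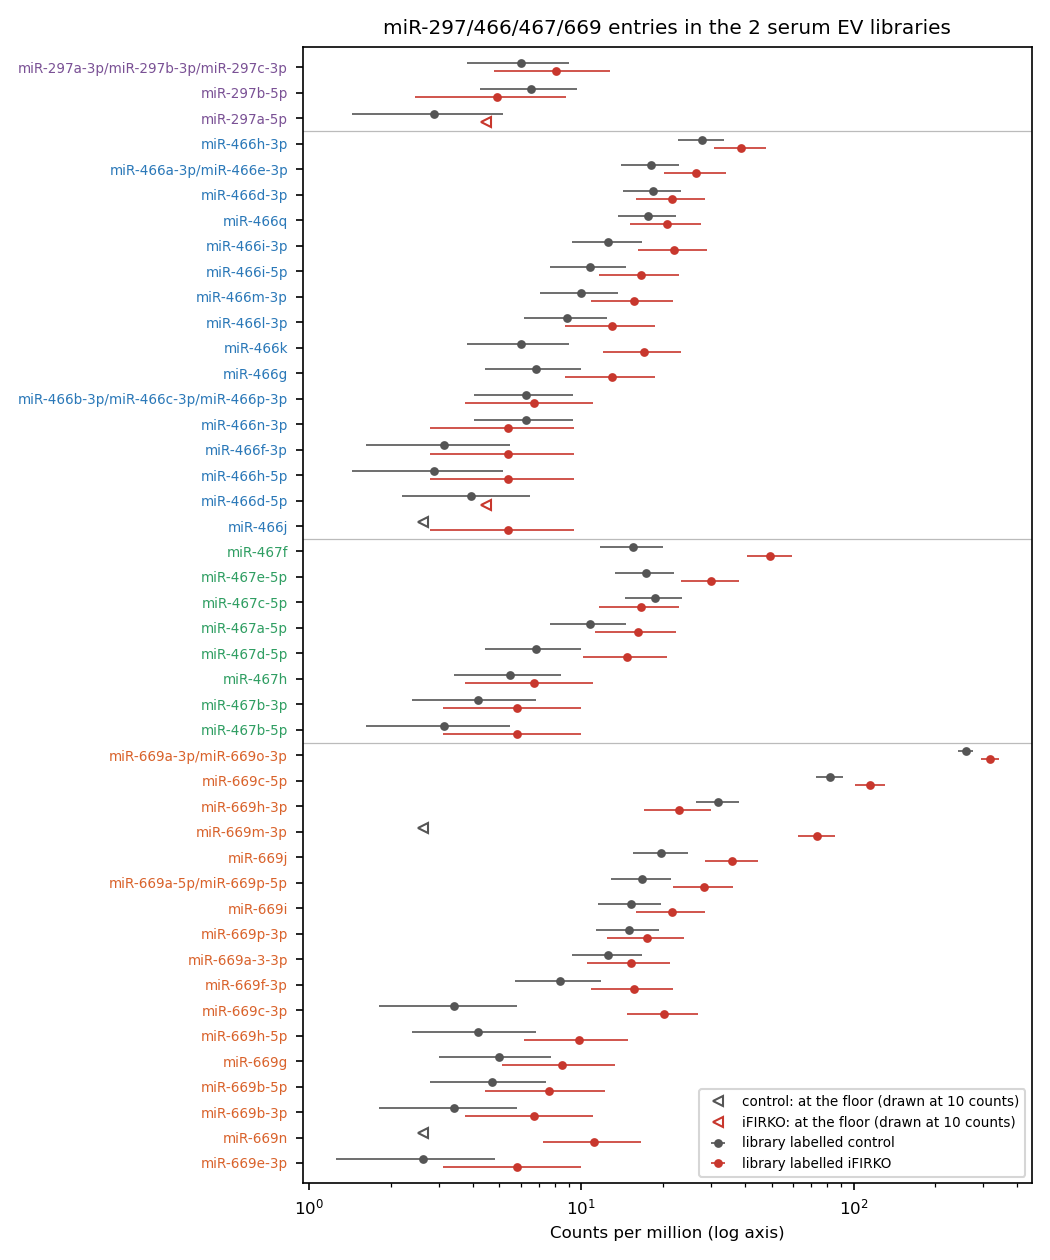
Level of each of the 44 members in CPM (log axis) in the control-labelled library (grey) and the iFIRKO-labelled library (red), with names coloured by family and bars for the exact 95% Poisson interval of the count. Open triangles mark members at the floor, drawn at 10 counts; miR-669a-3p/miR-669o-3p is the highest member in both libraries, and miR-669m-3p is at the floor in one and at rank 3 in the other.

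A few miR-669 entries carried most of the signal. The 10 highest members held 68.8% of the member counts in the control-labelled library and 65.6% in the iFIRKO-labelled library, and 7 members were in both lists. The order of the 39 members above the floor was alike in the 2 libraries, with a Spearman rho of 0.85 across members, close to the 0.86 across all 1736 miRNAs above the floor in both. These correlations describe 2 libraries, and the members share sequence and abundance range. The miR-669 entries made up 65.3% and 65.2% of the member counts, the miR-466 entries 21.6% and 20.7%, the miR-467 entries 11.1% and 12.9%, and the miR-297 entries 2.09% and 1.20%. Thus the summed share of the family was nearly the same in both libraries for miR-669 and miR-466. Within miR-669 the make-up differed. The share of miR-669a-3p/miR-669o-3p was 34.9% in the control-labelled and 28.2% in the iFIRKO-labelled library. That of miR-669m-3p, at the floor in the control-labelled library, was 6.53% in the iFIRKO-labelled library.

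The most abundant member was the joined entry miR-669a-3p/miR-669o-3p, which stands for 12 hairpins spread from 106.4 to 143.9 kb after the start of Sfmbt2. It had 985 counts (258 CPM) in the control-labelled library and 709 counts (317 CPM) in the iFIRKO-labelled library, at a ratio of 1.23 (1.12 to 1.36). Its part of the member counts, which does not depend on scaling, was 34.9% in the control-labelled library and 28.2% in the iFIRKO-labelled library. The second was miR-669c-5p, from a single hairpin at chr2:10509296-10509404, with 312 counts (81.7 CPM) and 257 counts (115 CPM), at a ratio of 1.41 (1.19 to 1.67). Both ratios lay above 1 on the deposited scale, fell below 1 after TMM scaling, and had intervals wholly under the median ratio of all miRNAs. These were the only members with a mean count of at least 100.

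**Figure D2:**
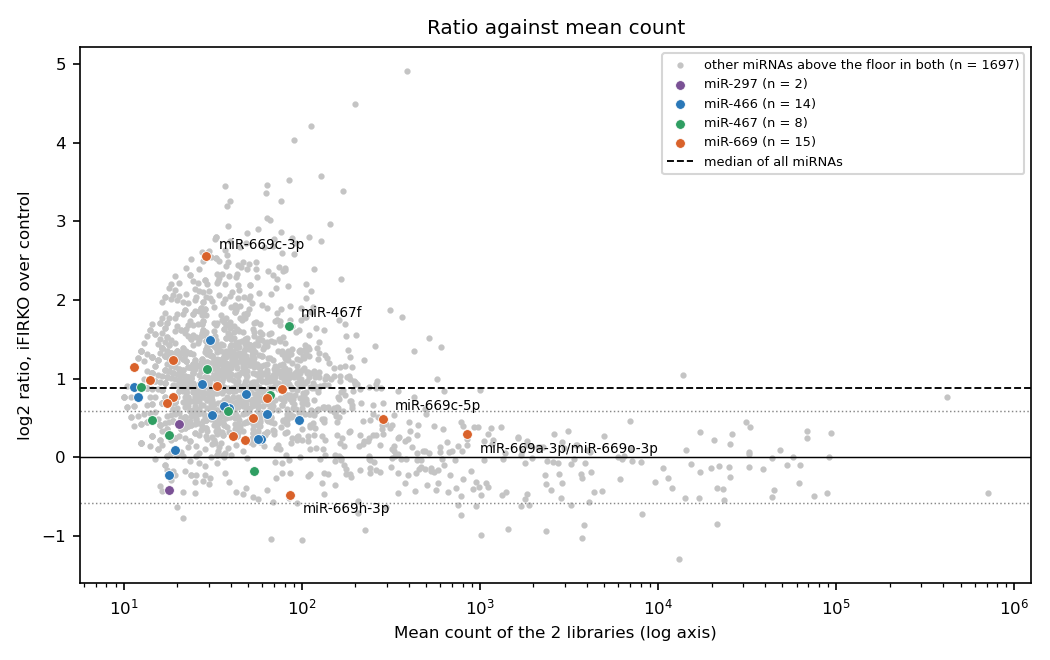
Mean count of the 2 libraries (log axis) against the log2 ratio of the iFIRKO-labelled library to the control-labelled library for miRNAs above the floor in both, with the 1697 other miRNAs in grey and the 39 members coloured by family. The dashed line is the median of all miRNAs (0.88), dotted lines mark 1.5-fold, and most members lie under the dashed line.

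Within miR-669, 11 of the 17 entries (64.7%) were over 1.5-fold higher in the iFIRKO-labelled library, close to the 66.3% of all miRNAs. None was over 1.5-fold lower, against 3.03% of all. The family median log2 ratio was 0.77 as deposited and −0.08 after TMM scaling, and 10 of the 17 lay under the median of all miRNAs. miR-669j had 75 counts (19.6 CPM) in the control-labelled library and 80 counts (35.8 CPM) in the iFIRKO-labelled library, at a ratio of 1.82 (1.31 to 2.53) that is close to the median of all miRNAs. The joined miR-669a-5p/miR-669p-5p, the opposite arms of the most abundant copies, had 64 counts (16.8 CPM) and 63 counts (28.2 CPM), at a ratio of 1.68 (1.17 to 2.42). In contrast, miR-669h-3p had 121 counts (31.7 CPM) and 51 counts (22.8 CPM). Its ratio of 0.72 (0.51 to 1.01) was the lowest of all members above the floor in both libraries, and it went from rank 3 among the members to rank 10. miR-669p-3p, from 2 hairpins, had 57 counts (14.9 CPM) and 39 counts (17.5 CPM), at a ratio of 1.17 (0.76 to 1.79).

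The largest ratio among members above the floor was that of miR-669c-3p, the opposite arm of miR-669c-5p. It had 13 counts (3.41 CPM) in the control-labelled library and 45 counts (20.1 CPM) in the iFIRKO-labelled library, at a ratio of 5.92 (3.14 to 12.0). The arms of this 1 hairpin thus lay on different sides of the median of all miRNAs, with the 5p arm under it and the 3p arm over it.

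Of the 8 miR-467 entries, 5 (62.5%) were over 1.5-fold higher in the iFIRKO-labelled library, against 66.3% of all miRNAs. The family median log2 ratio was 0.69 as deposited and −0.16 after TMM scaling. miR-467f had 59 counts (15.5 CPM) in the control-labelled library and 110 counts (49.3 CPM) in the iFIRKO-labelled library, at a ratio of 3.19 (2.30 to 4.45), and its rank among the members moved from 12 to 4. It remained higher in the iFIRKO-labelled library under every scaling tried. Its hairpin lies at chr11:69635400-69635519, in an intron of Fxr2 on the opposite strand, and not in Sfmbt2. miR-467d-5p, inside Sfmbt2, had 26 counts (6.81 CPM) and 33 counts (14.8 CPM), at a ratio of 2.17 (1.26 to 3.78). The ratio of miR-467e-5p was 1.74 (1.22 to 2.48), from 66 counts (17.3 CPM) and 67 counts (30.0 CPM). On the deposited scale miR-467c-5p lay under 1, unlike most of the family, with 71 counts (18.6 CPM) and 37 counts (16.6 CPM). Its ratio was 0.89 (0.58 to 1.34), with an interval that includes 1.

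Of the 16 miR-466 entries, 8 were over 1.5-fold higher and 1 over 1.5-fold lower, the latter at the floor. The family median log2 ratio was 0.59 as deposited and −0.27 after TMM scaling, and 12 of the 16 lay under the median of all miRNAs. The highest was miR-466h-3p at chr2:10514891-10514971, with 106 counts (27.8 CPM) in the control-labelled library and 86 counts (38.5 CPM) in the iFIRKO-labelled library, at a ratio of 1.39 (1.03 to 1.86). The joined miR-466a-3p/miR-466e-3p had 69 counts (18.1 CPM) and 59 counts (26.4 CPM), at a ratio of 1.46 (1.01 to 2.10). miR-466d-3p and miR-466q, the first inside Sfmbt2 and the other in an intron of Tnik on chromosome 3, were alike, with 70 and 67 counts in the control-labelled library, 48 and 46 counts in the iFIRKO-labelled library and a ratio of 1.17 each. Their intervals, 0.79 to 1.72 and 0.79 to 1.73, both include 1 on the deposited scale. The largest ratio of the family above the floor was that of miR-466k, with 23 counts (6.02 CPM) and 38 counts (17.0 CPM), at a ratio of 2.82 (1.64 to 4.97). miR-466g followed with 26 counts (6.81 CPM) and 29 counts (13.0 CPM), at a ratio of 1.91 (1.08 to 3.37).

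The 3 miR-297 entries had the lowest summed level of the 4 families. Their sum was 59 counts (15.5 CPM) in the control-labelled library and 30 counts (13.4 CPM) in the iFIRKO-labelled library, at a ratio of 0.87 (0.54 to 1.37). No miR-297 entry was over 1.5-fold higher, against 66.3% of all miRNAs, and all 3 lay under the median of all miRNAs. On this scale the interval includes 1. After TMM scaling the ratio of the sum was 0.48 (0.30 to 0.76), so whether the sum differed depends on the scaling. The family median log2 ratio was −0.41 as deposited and −1.27 after TMM scaling. These sums and medians hold miR-297a-5p at 1 count in the iFIRKO-labelled library, where it was at the floor. With floor entries at 10 counts the family median was 0.42 as deposited, so its sign depends on the floor.

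At the floor in 1 library were 5 members, 3 in the control-labelled library (miR-669m-3p, miR-669n and miR-466j) and 2 in the iFIRKO-labelled library (miR-466d-5p and miR-297a-5p). miR-669m-3p had fewer than 10 counts in the control-labelled library and 164 counts (73.4 CPM) in the iFIRKO-labelled library. Taking the floor at 10 counts, it was at least 28.0-fold higher on the deposited scale, and it had rank 3 among the members in the iFIRKO-labelled library with 6.53% of their counts. It stands for 2 hairpins inside Sfmbt2, at chr2:10512790-10512887 and chr2:10513434-10513531. Of the 76 miRNAs at the floor in the control-labelled library, 4 had at least 100 counts in the iFIRKO-labelled library, and 2 had more than miR-669m-3p. miR-669n, from an intron of Slc30a7 on the opposite strand, had 25 counts in the iFIRKO-labelled library and was at least 4.27-fold higher, and miR-466j had 12 counts there and was at least 2.05-fold higher. Both members that passed 1.5-fold in the lower direction, miR-466d-5p (15 counts in the control-labelled library) and miR-297a-5p (11 counts), did so only through the floor value. Taken at 10 counts in the iFIRKO-labelled library, neither was lower there on the deposited scale, with ratios of 1.14 and 1.55, but both turned below 1 after TMM scaling (0.63 and 0.86).

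Counting intervals were compared with the median ratio of all miRNAs, which is a comparison that scaling cannot change. Of the 39 members above the floor in both libraries, 9 had an interval wholly under it, against 20.7% of all 1736 miRNAs, and 2 had an interval wholly over it, against 14.9% of all. The 9 under it were miR-669a-3p/miR-669o-3p, miR-669c-5p, miR-669h-3p, miR-669p-3p, miR-467c-5p, miR-466d-3p, miR-466q, miR-466n-3p and miR-297b-5p. The 2 over it were miR-467f and miR-669c-3p. The remaining 28 could not be told from the median of all miRNAs by their counts. The 23.1% of members under it was close to the share among all miRNAs, and the 5.13% over it was the smaller share. These shares were not matched by count, and intervals are wider at low counts. The median counts of the members, 26.0 in the control-labelled and 34.5 in the iFIRKO-labelled library, were below the 37.0 and 47.0 of all miRNAs.

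Fisher's exact test of each count against all else in its library, with Benjamini-Hochberg adjustment over the 1736 miRNAs above the floor in both, compares these 2 libraries and not the genotypes. It called 14 of the 39 members (35.9%) higher in the iFIRKO-labelled library, against 60.5% of all miRNAs, and 0 members lower, against 4.84% of all, with 1 lower at an unadjusted p under 0.05. A binomial test with TMM library sizes called 2 members higher, against 11.8% of all miRNAs, and 4 lower, against 17.7% of all. Calls of both tests depend on the counts, which were lower for the members, and the shares were not matched by count. The 2 called higher by the binomial test were miR-467f (adjusted p = 0.00172) and miR-669c-3p (adjusted p = 0.000293). The 4 called lower were miR-669a-3p/miR-669o-3p, miR-669c-5p, miR-669h-3p and miR-467c-5p.

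Position inside or outside Sfmbt2 went with small differences in make-up. Members with all hairpins inside held 89.1% of the member counts in the control-labelled library and 85.5% in the iFIRKO-labelled library, and the 8 members outside held 9.25% and 13.2%. The 33 members inside had a median log2 ratio of 0.59. Of them, 17 (51.5%) were over 1.5-fold higher and 1 (3.03%) lower, against 66.3% and 3.03% of all miRNAs. The 8 members outside had a median of 1.15, with 6 (75.0%) over 1.5-fold higher. Their median was 0.92 with floor entries at 10 counts and 0.71 over the 6 above the floor in both libraries. After TMM scaling the medians were −0.27 inside and 0.30 outside. The summed CPM of the outside members was 68.4 in the control-labelled library and 149 in the iFIRKO-labelled library, at a ratio of 2.17 (1.84 to 2.57). For the members inside it was 1.46 (1.38 to 1.55). Single members weigh on both sums. The outside sum holds miR-467f, with 59 and 110 counts, and miR-669n and miR-466j, at the floor in the control-labelled library and entered there at 1 count. The inside sum holds miR-669m-3p, entered in the same way, with 164 counts in the iFIRKO-labelled library. Among the 8 outside, miR-467f, miR-466k, miR-669n and miR-466j had ratios over 2, and the other 4 had ratios from 1.17 to 1.74. This split was not tested.

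**Figure D3:**
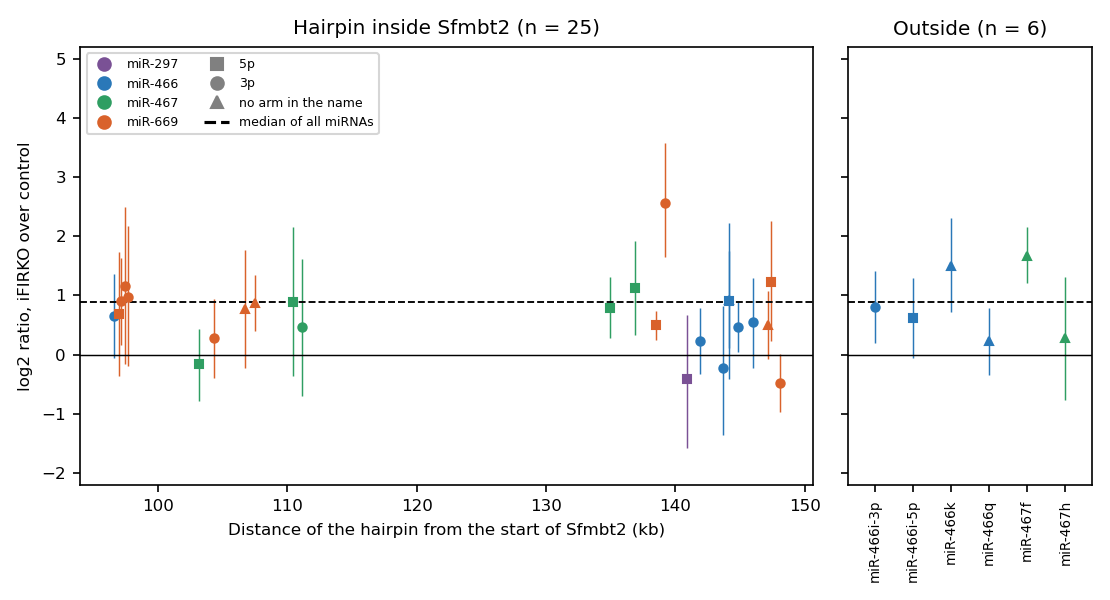
The log2 ratio of the iFIRKO-labelled library to the control-labelled library for the 31 members that come from 1 hairpin and are above the floor in both libraries, by distance of the hairpin from the start of Sfmbt2 in kb (25 members, left) or by name outside Sfmbt2 (6 members, right). Bars are 95% counting intervals, colour gives the family, the dashed line is the median of all miRNAs, and 5p and 3p marks of 1 hairpin are set slightly apart.

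Along the array, ratios lay near one another in some stretches and apart in others. The first block, from 96.2 to 97.4 kb after the start of Sfmbt2, held miR-466m-3p, miR-669f-3p, miR-669e-3p, miR-669b-5p and miR-669b-3p, with ratios from 1.57 to 2.22. Mir466f-1 also lies there, but its miR-466f-3p stands for 4 hairpins and is left out. Counts in the block were low, from 10 to 38, so the overlap of the intervals does not show that the ratios are alike. The last hairpin, Mir669h at chr2:10518155-10518279, gave the lowest ratio of the members above the floor from its 3p arm and 2.35 (1.18 to 4.79) from its 5p arm. Mir669m-1 lies 142.4 kb and Mir669m-2 143.0 kb after the start, between Mir466d at 141.5 kb and Mir466n at 143.3 kb. Their neighbours miR-466d-3p and miR-466n-3p had ratios of 1.17 and 0.85, far from the bound of 28.0-fold for miR-669m-3p.

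The balance of the arms compares strands of the same hairpin within a library and so does not depend on scaling. Both arms were listed under names of their own for 7 hairpin names (miR-466d, miR-466h, miR-466i, miR-467b, miR-669b, miR-669c and miR-669h), and 6 of them had all 4 values above the floor. In 2 of these 6 the balance differed by over 1.5-fold between the libraries, against 44.4% of all 610 hairpin names with both arms above the floor. For miR-669c the 5p arm was 24.0 times the 3p arm in the control-labelled library (312 and 13 counts) and 5.71 times in the iFIRKO-labelled library (257 and 45 counts), a shift of 4.20-fold (2.17 to 8.67). For miR-669h the 3p arm was 7.56 times the 5p arm in the control-labelled library (121 and 16 counts) and 2.32 times in the iFIRKO-labelled library (51 and 22 counts), a shift of 3.26-fold (1.49 to 7.20). In both cases the minor arm took a larger part in the iFIRKO-labelled library. The other 4 shifted by 1.13 to 1.34-fold, and their intervals all include 1. miR-466i was the most even, with 41 and 48 counts of its 5p and 3p arms in the control-labelled library and 37 and 49 counts in the iFIRKO-labelled library.

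**Figure D4:**
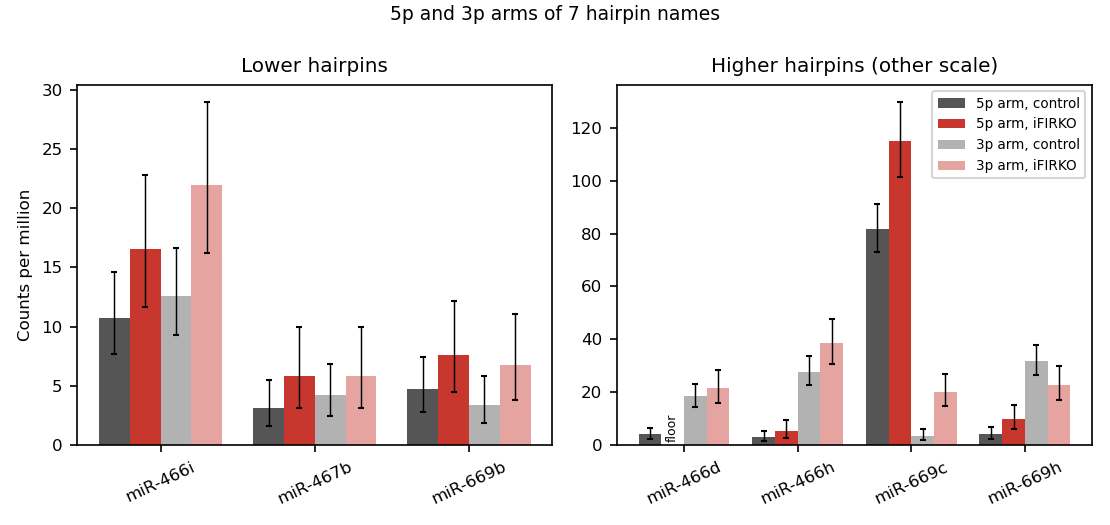
Level in CPM of the 5p arm (dark) and the 3p arm (light) of 7 hairpin names in the control-labelled library (grey) and the iFIRKO-labelled library (red), on 2 scales that both start at 0. Bars with lines show the exact 95% Poisson interval, "floor" marks miR-466d-5p in the iFIRKO-labelled library, and the minor arms of miR-669c and miR-669h are higher in red than in grey.

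The miRNAs outside the rule that hold the 8-base run or a known seed of a member were few, and their ratios ran from 0.98 to 1.90. The search covered the 1585 other listed miRNAs with a sequence. Those with the 8-base run were miR-574-5p, miR-3082-5p, miR-3097-5p and miR-672-5p. Seeds were known for only 7 of the 44 members, none of them inside Sfmbt2. Only miR-668-5p shared 1 of these known seeds, that of miR-467h, and seeds of the other members could not be searched. The run can be seen below in miR-574-5p and miR-3082-5p, and miR-668-5p, which lacks it, is shown for its seed. Capitals mark the seed.
miR-574-5p: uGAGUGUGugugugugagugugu
miR-3082-5p: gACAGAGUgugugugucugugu
miR-668-5p: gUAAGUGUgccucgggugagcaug

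miR-574-5p had 192 counts (50.3 CPM) in the control-labelled library and 115 counts (51.5 CPM) in the iFIRKO-labelled library, at a ratio of 1.02 (0.81 to 1.30), and miR-672-5p had a ratio of 0.98 (0.71 to 1.35). The ratios of miR-3082-5p and miR-3097-5p were 1.68 (1.13 to 2.50) and 1.90 (1.48 to 2.44). None of the 4 was at the floor. miR-668-5p had 12 and 10 counts, and miR-467h, which shares its seed, had 21 and 15 counts, with ratios of 1.42 (0.55 to 3.60) and 1.22 (0.59 to 2.48). The ratio of the opposite arms was 1.23 (1.16 to 1.30) for miR-574-3p and 2.03 (1.09 to 3.82) for miR-3082-3p.

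Markers of the cells that could contribute were read beside the members. Of 7 miRNAs known from embryonic stem cells and trophoblast (miR-290a-5p, miR-291a-3p, miR-292a-3p, miR-294-3p, miR-295-3p, miR-302a-3p and miR-367-3p), none was at the floor. Their levels ran from 2.62 to 18.3 CPM in the control-labelled library and from 6.27 to 27.8 CPM in the iFIRKO-labelled library, with ratios from 1.51 to 4.13 on the deposited scale. The median ratio of all miRNAs was 1.84. Both miR-290a-5p and miR-367-3p had only 10 counts in the control-labelled library, right at the limit of the floor. Intervals included 1 for miR-290a-5p (0.99 to 6.02), miR-291a-3p (0.95 to 4.75) and miR-302a-3p (0.97 to 2.55). Those of miR-292a-3p, miR-294-3p, miR-295-3p and miR-367-3p lay above 1. After TMM scaling 2 of the 7, miR-294-3p and miR-302a-3p, turn below 1. As labelled, the red cell miRNAs lay under 1 on the deposited scale and after TMM scaling, a direction that rests on the doubted labels, with deposited ratios of 0.41 (0.40 to 0.42) for miR-451a, 0.70 (0.68 to 0.72) for miR-486a-5p, and 0.73 for both miR-16-5p and miR-486b-5p. The hepatocyte miRNA miR-122-5p had a deposited ratio of 1.71 (1.70 to 1.71), which turns below 1 after TMM scaling. miR-16-5p alone was 260382 CPM in the control-labelled library and 190830 CPM in the iFIRKO-labelled library, far above the 739 CPM and 1124 CPM of all members together. The part of these markers in the levels of the members was not tested.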

How the data were processed

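EV miRNA was prepared with the QIAseq miRNA Library Kit and analysed by the authors on the GeneGlobe Data Analysis Center, with mm10 named in the submitters' processing notes. The aligner and the use of molecular identifiers are not given in the sources used here. The deposited signal is 1 value per miRNA, and multiplying it by 1 constant per library gave whole counts (within 0.05) for 100.0% of values. Of the constants, 0.676% and 0.907% were not in the listed counts. Ratios used these counts without a pseudocount, and 1.5-fold was the threshold of the study. Intervals of ratios are Clopper-Pearson intervals. Fisher's exact test used SciPy 1.17.1, and TMM factors came from edgeR 4.0.16 in R 4.3.3. Intervals of arm shifts are those of conditional odds ratios. Hairpins and sequences are from RefSeq (GRCm38.p6) and exons from GENCODE. The rule for names took members with a mean count of at least 100, the 10 highest, the 5 largest and 5 smallest ratios above the floor (mean count 20 or more), and those at the floor. Further names (neighbouring hairpins, arm pairs under a mean count of 50, interval lists) were chosen after their values were seen. The members and lists were chosen with earlier results of these data known.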

Additional observations from a re-analysis of the deposited data

How the results depend on the processing

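The counts of members over 1.5-fold higher and lower, 24 and 2 as deposited, were 6 and 10 with TMM factors and 15 and 4 when scaled to miR-148a-3p or to the median of ratios. For this last scaling only abundant miRNAs (mean count 100 or more) entered the median. It was 1.20, and not the 1.84 of all miRNAs. The median log2 ratio, 0.64, was −0.21 with TMM factors, 0.42 with miR-148a-3p and 0.37 with the median of ratios, and the summed ratio, 1.52, was 0.84, 1.31 and 1.26. These scalings lower every ratio by 1.81, 1.16 and 1.20 times, which is the cause of the shifts. Equal totals changed no call. Of 17 named members above the floor in both, 9 turned below 1 with TMM factors, 2 of them past 1.5-fold as deposited: miR-467e-5p (0.96) and miR-669a-5p/miR-669p-5p (0.93). No member was over 1.5-fold lower at a mean count of at least 10 or 20, above the floor in both, or with floor entries at 10 counts, and 1 was among members wholly inside Sfmbt2. At a mean count of at least 20 the higher count was 14, at least 100 it was 0 with a median of 0.40, and past 2-fold it was 9. No share of all miRNAs was worked out for these limits. Nor was one for the scalings to miR-148a-3p and to the median of ratios, so these counts have no background beside them. Without the most abundant member the summed ratio was 1.68. With TMM library sizes the counting test called 2 higher and 4 lower. Adding 1 CPM and leaving out joined names changed no direction. Leaving out miR-669a-3-3p and a 2-fold limit for arms, both chosen after seeing the data, changed neither counts nor directions. No paired analysis was possible because there was 1 library per group, and no library could be left out. Summing by seed was not run, since 7 of 44 members had a sequence. Counts under 100 limit single members, and intervals hold no spread between mice.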
